A study of Mus musculus with 8 samples.

Results

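The genes described here are 31 genes of mitochondrial fatty acid oxidation and ketogenesis, taken from a list of gene names that covers fatty acid activation, the carnitine shuttle, beta oxidation, electron transfer and ketone body synthesis. A gene was included when its name stood in the deposited gene count table, which holds 35976 genes, and all 31 listed names were found. The rule uses no measured value.

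RNA from whole mouse liver was sequenced in 8 libraries. Every mouse was on a high fat diet, so the comparison carries no group on another diet. The 5 libraries labelled CTRL are the controls, and the 3 labelled OPA1_LKO are livers in which Opa1, the GTPase that fuses inner mitochondrial membranes, was knocked out in hepatocytes. The promoter behind the deletion, the exons removed, and the sex, age and strain of the mice are not stated in the labels, and neither is whether each library came from a separate animal, so p-values measure the spread between these libraries, which may be technical in part.

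Fatty acids are joined to coenzyme A, carried into the mitochondrial matrix as carnitine esters, and shortened there by repeated rounds of dehydrogenation, hydration, a second dehydrogenation and thiolytic cleavage. The electrons of the first dehydrogenation pass through the electron transfer flavoprotein to ubiquinone. In liver much of the acetyl-CoA made in this way can be turned into ketone bodies, and the nuclear receptor PPAR alpha drives many of these genes during fasting.

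Opa1 itself checks the labels. It was measured at 39.9, 51.9, 44.0, 57.6 and 46.9 CPM (counts scaled to library size) in CTRL replicates 1 to 5 and at 24.7, 34.4 and 34.0 CPM in OPA1_LKO replicates 1 to 3. All 3 knockout libraries lay below all 5 controls, with a log2 fold change of -0.63 ± 0.17 (SE) and, by edgeR's quasi-likelihood test, an adjusted p of 0.0539, just over the threshold of 0.05. Whole liver holds other cells that keep the gene, and in such bulk RNA fewer cells of a type and less RNA per cell cannot be told apart. Library totals ran from 16076404 to 20471271 counts, and mitochondrially encoded genes took from 11.96% to 26.4% of them, most in CTRL replicate 3. CTRL replicate 1 also stood apart in Apoe, an abundant liver gene, where it held 134 CPM while the other 7 held 20759 to 33180 CPM. The labels give no reason for this, and without that library 1701 genes were called in place of 846. Summed TPM (transcript abundance, corrected for length and scaled to a fixed sum) of 10 hepatocyte markers ran from 52535 to 66253 in CTRL and from 59272 to 72570 in OPA1_LKO. Without Alb, the leading gene, the other 9 summed to 24406 to 31611 and 27388 to 34452 TPM. Together, the defining genes of the labelled tissue were thus abundant in every library. Of the 10, Tat was called higher (log2 fold change 1.61 ± 0.26, adjusted p 0.0095) and 0 lower.

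Among the 31 genes, Acsl4 and Acot2 were higher in OPA1_LKO liver and Hadh was lower. All 31 passed the filter on low counts, so every member was tested. Of them 2 were called higher (6.45%) and 1 lower (3.23%) at an adjusted p under 0.05, while 3.34% of the 14036 tested genes were called higher and 2.69% lower, 6.03% in all. At an unadjusted p under 0.05 the counts were again 2 and 1, and DESeq2 called the same 3 genes. The log2 fold change was below 0 for 26 members (83.9%), against 53.1% of all tested genes, and its median over the members was -0.25 against -0.03 over all tested genes. Without OPA1_LKO replicate 3 the member median was -0.13. All 3 knockout libraries were above all 5 controls for 2 members (6.45%, against 8.0% of all tested genes) and below them for 4 (12.9%, against 8.41%). On TPM the counts were 3 above (9.52% of all tested genes) and 1 below (2.79%), since Acadl, Acad12 and Eci1 overlapped there and Etfb did not. The share of genes called therefore did not stand far from that of the whole table.

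**Figure D1:**
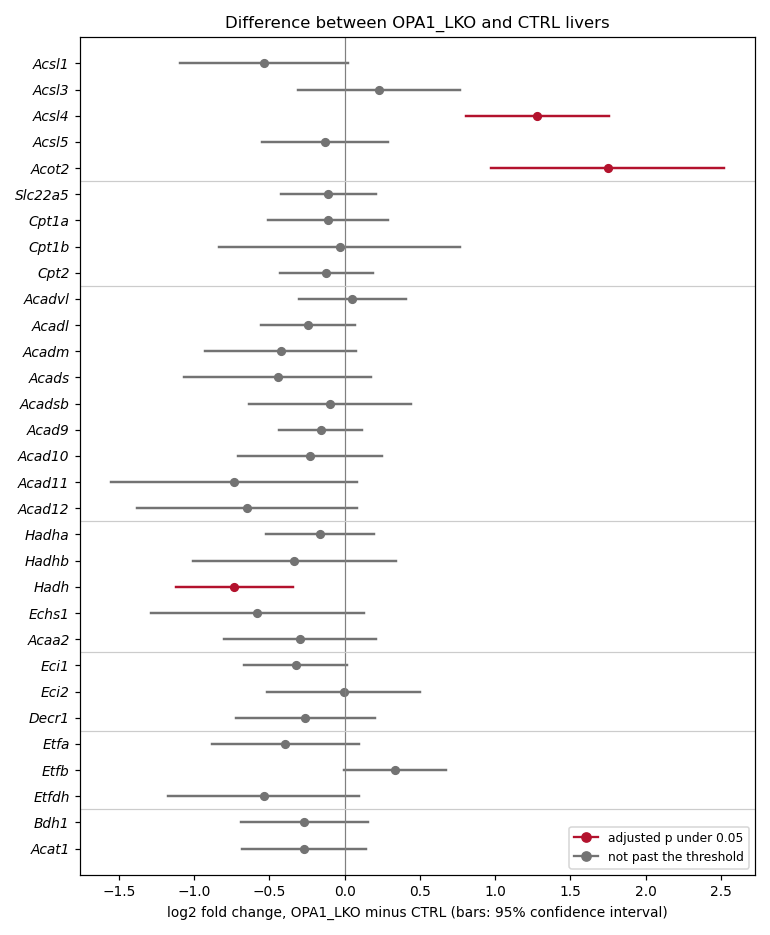
Log2 fold change of each of the 31 genes, OPA1_LKO minus CTRL, on the horizontal axis, with bars for the 95% confidence interval; genes are ordered by role from activation at the top to ketone bodies at the bottom. Acsl4 and Acot2 lie to the right and Hadh to the left in red (adjusted p under 0.05), and 25 of the 28 grey genes have a value below 0.

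Acot2, called higher, and Hadh, called lower, are shown by the sequence just before their start sites, so that the letters there can be set side by side. The stretch for Acsl4 lies inside the annotated span of a longer transcript of the same gene and is not printed. Hadha and Echs1 are added for their layout and for the letters they hold. Each run is 250 bases, written 5′ to 3′ on the strand of the gene and ending at the base before the RefSeq start site in build GRCm38.p6. Capitals mark matches to the letters searched, which are described after the runs.
Acot2 (chr12:83987611-83987860, plus strand): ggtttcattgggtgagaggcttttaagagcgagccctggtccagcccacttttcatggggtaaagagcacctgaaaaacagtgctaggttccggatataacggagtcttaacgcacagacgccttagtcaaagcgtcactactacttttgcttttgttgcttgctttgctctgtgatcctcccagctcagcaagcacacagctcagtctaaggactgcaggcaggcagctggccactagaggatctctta
Hadh (chr3:131272102-131272351, minus strand): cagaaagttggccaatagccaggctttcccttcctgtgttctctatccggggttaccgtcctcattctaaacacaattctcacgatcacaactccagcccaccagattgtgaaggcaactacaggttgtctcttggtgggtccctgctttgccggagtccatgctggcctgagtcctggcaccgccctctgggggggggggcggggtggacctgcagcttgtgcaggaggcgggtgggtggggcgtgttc
Hadha (chr5:30154981-30155230, minus strand): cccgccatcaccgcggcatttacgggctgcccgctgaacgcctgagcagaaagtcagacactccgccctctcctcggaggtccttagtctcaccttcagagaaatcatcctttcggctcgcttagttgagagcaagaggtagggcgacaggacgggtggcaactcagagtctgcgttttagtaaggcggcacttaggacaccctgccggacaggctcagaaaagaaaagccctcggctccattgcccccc
Echs1 (chr7:140116422-140116671, minus strand): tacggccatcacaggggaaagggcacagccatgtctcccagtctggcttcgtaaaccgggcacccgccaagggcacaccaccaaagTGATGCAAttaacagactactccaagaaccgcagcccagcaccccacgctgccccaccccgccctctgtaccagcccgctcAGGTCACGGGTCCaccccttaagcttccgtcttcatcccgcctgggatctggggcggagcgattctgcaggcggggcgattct

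RefSeq windows of 300 bases (250 before and 50 after the start site) were found for 26 of the 31 members, 28 windows in all, and were searched on both strands. The hexamer AGGTCA, the core bound by PPAR alpha, RXR and other nuclear receptors, occurred in 4 members, Acadm, Acadvl, Cpt1a and Echs1, and in 16.3% of all 32851 windows. No member window held a pair of AGGTCA hexamers 1 base apart, the layout of a PPAR response element, which 0.0396% of all windows held. A pair with up to 2 of its 12 letters different occurred in Echs1 and Etfa and in 3.86% of all windows, and it overlaps the single hexamer in Echs1. The letters TCAAGGTCA, the layout favoured by estrogen-related receptors, were in no member window and in 0.423% of all. TGATGNAA, letters like those bound by ATF4 with C/EBP proteins, occurred in Echs1 and in 3.97% of all windows. None of the runs of Acot2, Hadh and Hadha holds capitals, and that says only that these letters are not in these windows. Hadha and Hadhb face away from each other on chromosome 5, with start sites at 30154980 and 30155253 and 272 bases between them, so that the run printed for Hadha is nearly the same DNA that precedes Hadhb.

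Acsl4 and Acot2, the members called higher, belong to activation and its reversal. Acyl-CoA synthetases of the long-chain family join fatty acids to coenzyme A, and thioesterases take the coenzyme A off again. Of these 5 genes 2 were called higher and 0 lower, with a median log2 fold change of 0.23. Acsl4, which prefers arachidonic acid and other polyunsaturated fatty acids, lies on chromosome X from 142317993 to 142390802. It was measured at 19.0, 12.6, 15.5, 22.2 and 21.8 CPM in CTRL replicates 1 to 5 and at 57.0, 34.8 and 41.0 CPM in OPA1_LKO replicates 1 to 3. Every knockout library was above every control, with replicate 1 the highest. The means were 18.2 ± 4.09 CPM (SD, n = 5) and 44.3 ± 11.5 CPM (SD, n = 3), a 2.43-fold difference with a log2 fold change of 1.28 ± 0.21 (SE) and an adjusted p of 0.0105 by edgeR. Without OPA1_LKO replicate 1 the log2 fold change was 1.05 and the adjusted p 0.0594, while over all 16 alternatives the adjusted p ran from 7.46e-06 to 0.0594.

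Acsl4 is also made outside hepatocytes, and some markers of other liver cells differed between the groups. The summed TPM of 8 cholangiocyte markers was 19.9 to 59.4 in CTRL and 121 to 197 in OPA1_LKO, with 3 of the 8 (Spp1, Krt7 and Sox9) called higher and Cftr under 1 TPM in every library. Most of that sum is Spp1 (12.1 to 32.5 and 98.9 to 168 TPM), and the sum of the other 7 overlapped, at 6.76 to 45.0 TPM in CTRL, highest in replicate 3, and 22.6 to 28.7 TPM in OPA1_LKO. That overlap came from CTRL replicate 3 alone, and the other controls lay below every knockout library. Krt19 was at 23.1 TPM in CTRL replicate 3, 0.52 to 1.05 TPM in the other controls and 2.86 to 6.09 TPM in OPA1_LKO. The summed TPM of 8 stellate cell markers was 103 to 148 in CTRL and 162 to 346 in OPA1_LKO, with 0 of the 8 called by edgeR and 3 at an unadjusted p under 0.05. Without Dcn, its most abundant gene, the sums overlapped at 36.1 to 73.8 and 50.5 to 108 TPM. Markers of macrophages (108 to 869.6 TPM in CTRL, highest in replicate 1, and 124 to 271 in OPA1_LKO), endothelial cells (52.5 to 105 and 58.9 to 139) and lymphocytes (4.49 to 16.2 and 9.98 to 17.5) overlapped between the groups in their sums, each over 8 genes with 0 called. The part of all these cells in the Acsl4 difference was not tested.

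Acot2 encodes a mitochondrial acyl-CoA thioesterase, which frees long-chain fatty acids inside the matrix, and lies on chromosome 12 from 83987861 to 83993877. Its levels were 62.9, 21.3, 40.6, 32.2 and 37.9 CPM in CTRL replicates 1 to 5 and 195, 74.0 and 124 CPM in OPA1_LKO replicates 1 to 3. The groups did not overlap, but the knockout libraries spread widely, with replicate 2 the lowest of them and replicate 1 the highest. Means were 39.0 ± 15.3 CPM (SD, n = 5) and 131 ± 60.8 CPM (SD, n = 3), a 3.36-fold difference with a log2 fold change of 1.75 ± 0.35 (SE) and an adjusted p of 0.0195. This call was lost without CTRL replicate 5 (adjusted p 0.0544), OPA1_LKO replicate 1 (0.109) or OPA1_LKO replicate 3 (0.0671), and over the 16 alternatives the adjusted p ran from 6.90e-05 to 0.109.

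Acot2 has a near-identical neighbour in Acot1, the cytosolic thioesterase, 15624 bases away, and the counting divided shared reads between them by estimation. Acot1 was at 39.2, 84.3, 20.3, 96.3 and 102 CPM in the controls and 49.7, 93.1 and 33.1 CPM in the knockout libraries, with a log2 fold change of -0.22 ± 0.50 and an adjusted p of 0.826. The sum of both genes does not depend on how reads were divided between them, and it was 102, 106, 60.9, 129 and 139 CPM in CTRL against 245, 167 and 157 CPM in OPA1_LKO. The sums did not overlap either, and the knockout mean was 1.77 times the control mean, a smaller ratio than for Acot2 alone.

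Acsl1, the main long-chain synthetase of liver and the most counted of the 5, was at 678, 1073, 749, 1436 and 1175 CPM in the controls and at 664, 773 and 680.2 CPM in OPA1_LKO. The knockout libraries lay at the low end of the controls, near CTRL replicates 1 and 3, and replicate 1 was below them all. Its log2 fold change was -0.53 ± 0.25 with a 95% confidence interval of -1.09 to 0.02 and an adjusted p of 0.229. Acsl5, found on mitochondria and endoplasmic reticulum, ranged from 128 to 203 CPM in the controls and from 130.1 to 167 CPM in OPA1_LKO (log2 fold change -0.13 ± 0.19, adjusted p 0.717). Acsl3, a synthetase of the endoplasmic reticulum and lipid droplets, ranged from 5.10 to 8.89 CPM in the controls and from 6.70 to 9.56 CPM in the knockout libraries (0.23 ± 0.24, adjusted p 0.606). Both overlapped between the groups.

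**Figure D2:**
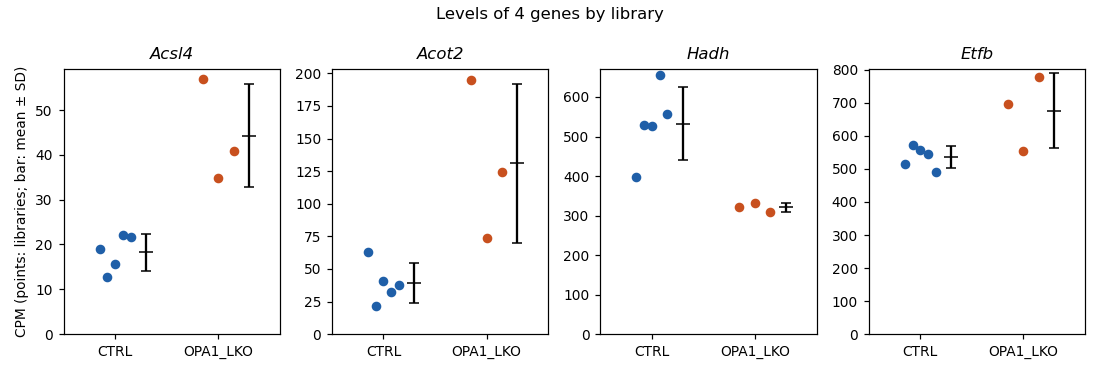
CPM in each library (points) with mean ± SD (bars) for Acsl4, Acot2, Hadh and Etfb in CTRL (n = 5) and OPA1_LKO (n = 3), on axes that start at 0. Acsl4 and Acot2 have every knockout library above the controls, Hadh has every one below, and Etfb has OPA1_LKO replicate 2 within the control range.

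The carnitine shuttle did not show a difference past the threshold in any of its 4 genes, whose log2 fold changes ran from -0.12 to -0.03 with a median of -0.11. Cpt1a, the liver form of the outer membrane carnitine palmitoyltransferase that malonyl-CoA inhibits, was at 256, 325, 341, 352 and 413 CPM in the controls and 367, 294 and 276 CPM in OPA1_LKO. All 3 knockout libraries fell inside the control range. The log2 fold change was -0.11 ± 0.18, with an interval of -0.51 to 0.29 and an adjusted p of 0.745. Cpt2, which remakes the acyl-CoA on the matrix side, was at 220.1, 243, 225, 266 and 205 CPM in the controls and 227, 192 and 220.1 CPM in OPA1_LKO, with 1 knockout library (replicate 2) below the controls. Its log2 fold change was -0.12 ± 0.14, interval -0.43 to 0.19, adjusted p 0.639. Slc22a5, the carnitine importer of the cell surface, ranged from 32.2 to 44.2 CPM in the controls and from 33.3 to 36.9 CPM in the knockout libraries, with a log2 fold change of -0.11 ± 0.14 and an adjusted p of 0.68.

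Cpt1b is the muscle form of the same transferase. It was low, at 13.9, 3.43, 9.002, 6.997 and 7.505 CPM in the controls and 7.43, 6.57 and 10.1 CPM in OPA1_LKO, and its widest values both came from controls, CTRL replicate 1 above and CTRL replicate 2 below all others. The log2 fold change of -0.03 ± 0.36 had an interval of -0.83 to 0.77 and an adjusted p of 0.969, so differences inside that interval were not detectable at this spread. The summed TPM of 7 muscle markers was 0.82 to 4.61 in CTRL, highest in CTRL replicate 1, and 1.5 to 2.60 in OPA1_LKO. Of those markers Myh4 was at 0 in every library, and Ckm, Acta1, Tnnt3 and Mb were under 1 TPM in all. The summed TPM of 7 adipocyte markers was 21.7 to 74.0 in CTRL and 3.68 to 17.9 in OPA1_LKO, with Cidea called lower and Plin1, Lep and Ucp1 under 1 TPM throughout. Without Cfd, the leading gene of that sum, the groups overlapped at 3.47 to 27.2 TPM in CTRL and 0.48 to 3.79 TPM in OPA1_LKO. Most of what remained in CTRL was Cidea, at 3.41 to 27.0 TPM there and 0.22 to 0.92 TPM in OPA1_LKO. Adipoq was at 0 to 0.13 TPM in CTRL and at 0, 1.01 and 0 TPM in OPA1_LKO replicates 1 to 3. Retn was at 0 to 0.23 TPM in CTRL and at 0.26, 1.53 and 0.14 TPM in those knockout libraries. The lower sum in OPA1_LKO therefore rests on Cfd and Cidea, while Adipoq and Retn were highest in OPA1_LKO replicate 2. The part of muscle or fat cells in the level of Cpt1b was not tested.

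Acyl-CoA dehydrogenases take the first electrons from the fatty acid, each on a range of chain lengths. Of the 9 genes 0 were called by edgeR, by DESeq2 or at an unadjusted p under 0.05, and 8 had a log2 fold change below 0, with a median of -0.25. Acadvl, for very long chains, was the exception in sign, at 324, 452, 325, 438 and 389 CPM in the controls and 414, 413 and 373 CPM in OPA1_LKO. Its log2 fold change was 0.05 ± 0.16, interval -0.31 to 0.41, adjusted p 0.875, and every knockout library was within the control range. Acadm, for medium chains, was at 329, 513, 355, 628 and 549 CPM in the controls and 358, 375 and 329 CPM in OPA1_LKO. The knockout libraries again lay near CTRL replicates 1 and 3 and below the other 3 controls. For Acadm the log2 fold change was -0.42 ± 0.23, interval -0.93 to 0.08, adjusted p 0.287.

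Acadl, the long-chain enzyme, and Acad12 were below the controls in all 3 knockout libraries without passing the test. Acadl ranged from 279 to 355 CPM in the controls and from 231 to 263 CPM in OPA1_LKO (log2 fold change -0.25 ± 0.14, adjusted p 0.322), and without CTRL replicate 4 the log2 fold change was -0.16. Acad12 ranged from 3.35 to 8.76 CPM in the controls and from 2.82 to 3.33 CPM in the knockout libraries (-0.65 ± 0.33, adjusted p 0.265), on counts of 53 to 153 per library, and without CTRL replicate 5 the log2 fold change was -0.32. Of the remaining members of the family, Acad11 had the lowest value, at -0.73 ± 0.37 with an adjusted p of 0.258, and ranged from 124 to 289 CPM in the controls and from 82.5 to 204 CPM in OPA1_LKO. Acads, for short chains, was at -0.45 ± 0.28 (adjusted p 0.369, 97.5 to 196 CPM in the controls and 81.2 to 152 CPM in OPA1_LKO). Acadsb, which serves isoleucine breakdown, Acad9, which also helps to assemble complex I, and Acad10 had log2 fold changes of -0.10 ± 0.24, -0.16 ± 0.12 and -0.23 ± 0.22, with adjusted p of 0.843, 0.477 and 0.557. Their controls ranged from 67.7 to 136, 35.1 to 44.4 and 15.8 to 31.1 CPM, and their knockout libraries from 77.5 to 102, 33.4 to 37.5 and 19.0 to 22.2 CPM in the same order.

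Hadh, the matrix dehydrogenase of short- and medium-chain 3-hydroxyacyl-CoA, catalyses the third step of each round and was the only member called lower. It lies on chromosome 3 from 131233419 to 131272101. Its levels were 398, 529, 525.9, 655 and 557 CPM in CTRL replicates 1 to 5 and 321, 332 and 309.6 CPM in OPA1_LKO replicates 1 to 3. The knockout libraries were close together and below every control, of which CTRL replicate 1 was the lowest. Means were 533 ± 91.9 CPM (SD, n = 5) and 321 ± 11.3 CPM (SD, n = 3), so that the control level was 1.66 times the knockout level. The log2 fold change was -0.73 ± 0.17 (SE) and the adjusted p 0.0384 by edgeR. This call was not stable: it was lost when any library but CTRL replicate 1 was left out (adjusted p 0.0618 to 0.163), with no low-count filter (0.0666) and on log2(TPM + 1) with limma (log2 fold change -0.55, adjusted p 0.0913). DESeq2 gave 0.000416, the lowest of the 16 alternatives, and the direction was the same in all 16.

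The other hydration, dehydrogenation and thiolysis genes all had log2 fold changes below 0, and none of those 4 passed the test. Hadha and Hadhb encode the subunits of the trifunctional protein, which runs the last 3 steps for long chains. Hadha was at 260.5, 316, 235, 310.3 and 324 CPM in the controls and 282, 271 and 220.3 CPM in OPA1_LKO. Only OPA1_LKO replicate 3 lay below the controls, and the log2 fold change was -0.16 ± 0.16, interval -0.52 to 0.19, adjusted p 0.574. Hadhb was at 104, 180.3, 97.5, 201 and 223 CPM in the controls and 137, 155 and 91.6 CPM in OPA1_LKO, with a log2 fold change of -0.33 ± 0.30, interval -1.01 to 0.34, adjusted p 0.541. CTRL replicates 1 and 3 lay far below the other 3 controls, OPA1_LKO replicates 1 and 2 fell in the gap between them, and OPA1_LKO replicate 3 was below all controls.

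Acaa2, the thiolase that ends each round for shorter chains, was at 645, 1083, 684, 1029 and 944 CPM in the controls and 713, 868 and 562 CPM in OPA1_LKO. Only OPA1_LKO replicate 3 was below the controls. For Acaa2 the log2 fold change was -0.30 ± 0.23, interval -0.80 to 0.21, adjusted p 0.468. Echs1, the short-chain enoyl-CoA hydratase whose upstream run is printed above, ranged from 134 to 333 CPM in the controls and from 123 to 197 CPM in OPA1_LKO (-0.58 ± 0.32, adjusted p 0.3).

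Unsaturated fatty acids need auxiliary enzymes that move or remove their double bonds. None of the 3 genes passed the test. Eci1, an enoyl-CoA isomerase, was below the controls in all 3 knockout libraries, by a narrow margin: 205 to 230.4 CPM against 231 to 336 CPM (log2 fold change -0.32 ± 0.15, adjusted p 0.233). Eci2, its relative that also serves peroxisomes, ranged from 156 to 292 CPM in the controls and from 197 to 274 CPM in OPA1_LKO (-0.01 ± 0.23, adjusted p 0.993). Decr1, the dienoyl-CoA reductase, ranged from 185 to 297 CPM in the controls and from 174 to 232 CPM in the knockout libraries (-0.26 ± 0.21, adjusted p 0.482).

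The 3 electron transfer genes differed in sign, with 0 called. Etfa and Etfb encode the subunits of the electron transfer flavoprotein, and Etfdh the membrane enzyme that hands the electrons to ubiquinone. Etfdh was at 160.2, 253, 131, 294 and 216 CPM in the controls and 142, 189.6 and 104 CPM in OPA1_LKO, where only replicate 3 was below the controls. Its log2 fold change was -0.54 ± 0.29, interval -1.17 to 0.10, adjusted p 0.284. Etfb was at 515, 571, 557, 546 and 490.5 CPM in the controls and 695, 553 and 777 CPM in OPA1_LKO, with a log2 fold change of 0.33 ± 0.15, interval -0.01 to 0.67, adjusted p 0.217, the lowest among the 28 members not called. In TPM all 3 knockout libraries of Etfb (1103, 895 and 1066) were above the 5 controls (861, 840, 644, 643 and 670), and over the 16 alternatives its fold change was above 0 each time and never called. Etfa ranged from 271 to 475 CPM in the controls and from 231 to 289.6 CPM in OPA1_LKO (-0.39 ± 0.22, adjusted p 0.307).

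Genes that work as partners were also compared as ratios of TPM within each library, in 4 exact two-sided permutation tests over the 56 divisions of the libraries, where the smallest possible p is 0.0357. Etfa over Etfb was 0.304, 0.389, 0.278, 0.496 and 0.325 in CTRL and 0.190, 0.299 and 0.183 in OPA1_LKO. Of the knockout libraries, replicates 1 and 3 were below all controls and replicate 2 was inside their range. The means were 0.358 ± 0.0872 (SD, n = 5) and 0.224 ± 0.0651 (SD, n = 3), with an exact p of 0.0714 and 0.286 after Benjamini-Hochberg adjustment over the 4 ratios. Eci2 over Eci1 was 0.609 ± 0.153 in CTRL and 0.758 ± 0.101 in OPA1_LKO (exact p = 0.179, adjusted 0.357). Hadha over Hadhb was 0.989 ± 0.251 and 1.06 ± 0.169, and Cpt1b over Cpt1a was 0.0386 ± 0.0253 and 0.0394 ± 0.0132, each with an exact p of 0.75. No ratio passed, at an unadjusted p under 0.05 or after adjustment. Even at the smallest possible p, a single ratio could not have passed after adjustment over 4.

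**Figure D3:**
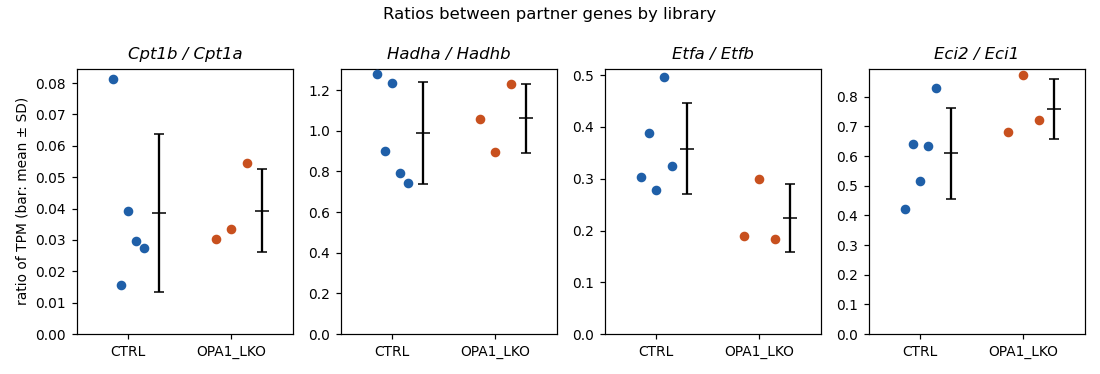
Ratio of TPM between 4 pairs of partner genes in each library (points), with mean ± SD (bars), for CTRL (n = 5) and OPA1_LKO (n = 3), on axes that start at 0. Etfa over Etfb is lowest in OPA1_LKO replicates 1 and 3, and the groups overlap in all 4 panels.

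Ketone body enzymes gave no difference past the threshold. Bdh1, which interconverts acetoacetate and beta-hydroxybutyrate, was at 233, 311, 266, 289.7 and 322 CPM in the controls and 281, 257 and 171 CPM in OPA1_LKO, where only replicate 3 was below the controls. Its log2 fold change was -0.27 ± 0.19, interval -0.69 to 0.15, adjusted p 0.428. Acat1, the mitochondrial acetoacetyl-CoA thiolase, was at 449, 672, 439.9, 663 and 548 CPM in the controls and 472, 479.9 and 429.9 CPM in OPA1_LKO, of which only replicate 3 was below the controls. For Acat1 the log2 fold change was -0.27 ± 0.19, interval -0.68 to 0.15, adjusted p 0.417.

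**Figure D4:**
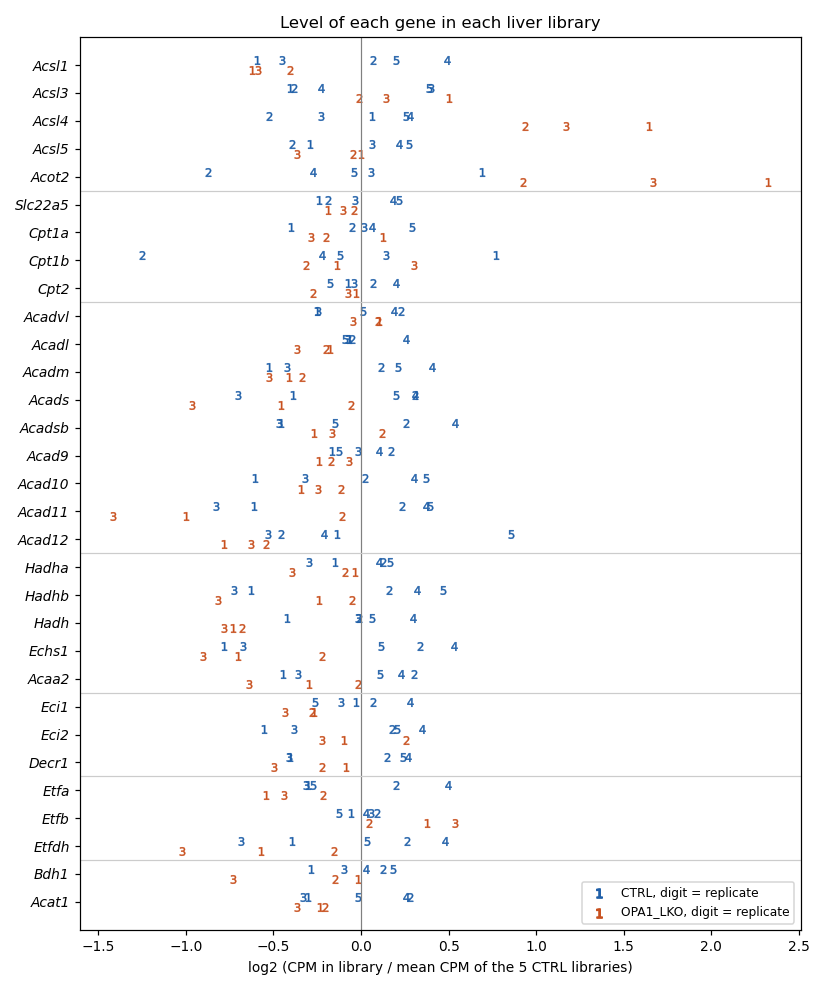
Level of each of the 31 genes in each library, as log2 of its CPM over the mean of the 5 CTRL libraries; blue points are CTRL, orange points are OPA1_LKO and genes are in order of role. Many rows have a wide spread of blue points, and only Acsl4, Acot2, Acadl, Acad12, Hadh and Eci1 have every orange point outside it.

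Many of these genes were high or low in the same control libraries. CTRL replicate 1 or 3 was the lowest control for 23 of the 31 genes, and these 2 libraries were the lowest pair for 18. CTRL replicate 4 was the highest control for 13. Among the knockout libraries, replicate 3 was the lowest for 18 and replicate 2 the highest for 16. OPA1_LKO replicates 1, 2 and 3 lay within the control range for 19, 23 and 13 members, and below it for 8, 6 and 15. These are the same control libraries that stood apart in Apoe (replicate 1) and in the mitochondrially encoded share (replicate 3), and the part of either in the members' levels was not tested. With both left out, a comparison chosen after the data were seen, 8 members were called lower (Acsl1, Acadm, Acads, Acad11, Hadhb, Hadh, Echs1 and Etfdh) and 2 higher, while over all genes 10.4% were called lower and 10.9% higher. Since these libraries are the lowest controls for many members, more lower calls follow from leaving them out and support nothing.

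Precision limits what the 28 uncalled members show. Their adjusted p ran from 0.217 to 0.993, and the SE over all 31 members from 0.12 to 0.37. The 95% interval stayed within 1.5-fold either way for 9 of the 31 and within 2-fold for 21. For the other 10, a difference of 2-fold in at least 1 direction lay inside the interval. Those 10 include the called members Acsl4, Acot2 and Hadh, and the rest of them are uncalled.

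Per length, the order of the members in CTRL liver began with Etfb at 732 ± 109.5 TPM, Acaa2 at 665 ± 164, Hadh at 328 ± 34.6, Eci1 at 302 ± 55.7 and Acsl1 at 283 ± 72.9 TPM (SD, n = 5). These 5 held 49.2% of the summed TPM of the members. Etfb and Acaa2 did not differ beyond their spread, nor did Hadh, Eci1 and Acsl1 among themselves, while Acaa2 and Hadh were further apart than their SDs. At the other end were Acsl4 at 3.84 ± 0.970, Cpt1b at 3.13 ± 1.91, Acad12 at 2.24 ± 1.06 and Acsl3 at 1.99 ± 0.511 TPM, whose neighbours also overlapped. In all, 14 members were above 100 TPM and 4 below 10, and Cpt1a, at 83.3 ± 12.4 TPM, stood at rank 19. In OPA1_LKO Acsl4 reached 10.5 ± 3.06 TPM (n = 3), still far below Acsl1 at 222 ± 32.5 TPM. The 31 genes together took 0.468, 0.563, 0.340, 0.490 and 0.488% of all TPM in CTRL and 0.493, 0.511 and 0.393% in OPA1_LKO, which overlapped.

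**Figure D5:**
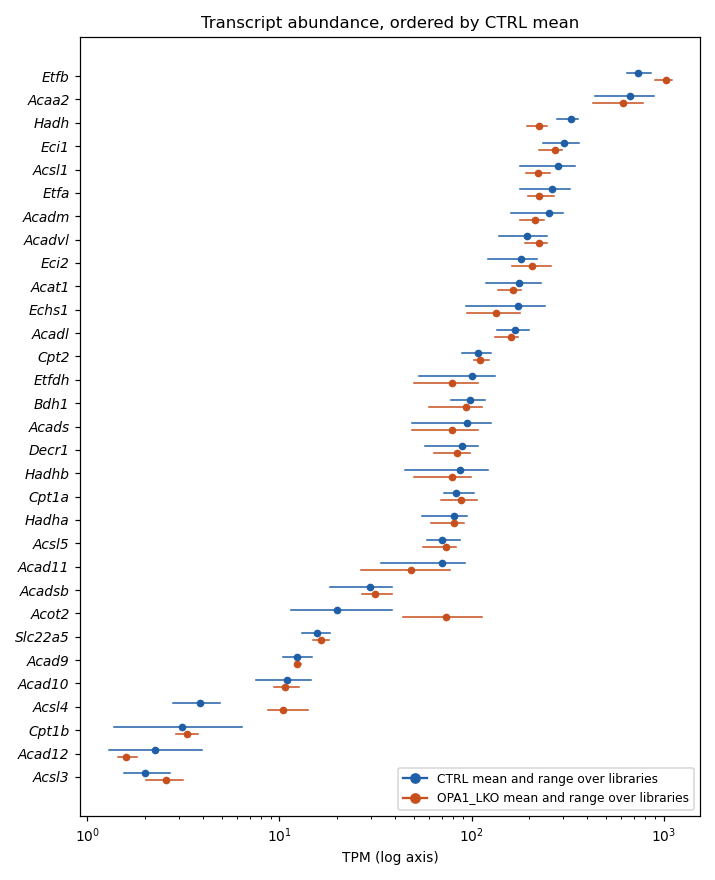
TPM of the 31 genes on a log axis, ordered by their CTRL mean. Points are the means and lines the ranges over the libraries of CTRL (n = 5) and OPA1_LKO (n = 3). Etfb and Acaa2 lead, 14 genes have a CTRL mean above 100 TPM, and Acsl4, Cpt1b, Acad12 and Acsl3 are below 10.

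The share of each transcript within its gene was tested where the files allow. A single transcript was listed for 18 members, and 10 members had at least 2 with a mean of 1 TPM or more, which gave 26 shares. None passed an exact permutation test, at an unadjusted p under 0.05 or after adjustment (lowest p 0.179, lowest adjusted p 0.874). The smallest p that 56 divisions allow is 0.0357, so after adjustment over 26 shares a single share could not have passed, and the test says little of transcript use. For Acsl4 the share of its leading transcript was 90.9, 0, 100, 95.3 and 90.0% in CTRL and 45.5, 0 and 99.1% in OPA1_LKO, so single libraries assigned nearly the whole gene to one transcript or the other in both groups.

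Other genes of the pathway, in 4 lists, were read beside the members. Over all tested genes edgeR called 3.34% higher and 2.69% lower, 53.1% had a log2 fold change below 0, and the median was -0.03. Of the 14036 tested genes, DESeq2 called 841 higher and 851 lower. Of 22 further mitochondrial acyl-CoA and ketone enzymes, 0 were called higher and 1 lower, with 19 of 22 below 0 and a median of -0.36. The gene called was Acsm5, a medium-chain acyl-CoA synthetase, at 92.5, 129.6, 114, 121 and 104 CPM in the controls and 64.1, 75.3 and 77.3 CPM in OPA1_LKO (log2 fold change -0.64 ± 0.15, adjusted p 0.0361). Its call held in 1 of the 8 comparisons that leave out a library (adjusted p up to 0.184, without OPA1_LKO replicate 1), as few as for Hadh. In this list DESeq2 called 0 higher and 2 lower.

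Of 25 other genes known as PPAR alpha targets, 4 were called higher and 1 lower, with 17 below 0 and a median of -0.32. Pdk4, the kinase that shuts down pyruvate dehydrogenase, was at 10.2, 5.51, 4.75, 4.18 and 8.08 CPM in the controls and 19.1, 17.1 and 15.4 CPM in OPA1_LKO, without overlap (log2 fold change 1.39 ± 0.27, adjusted p 0.0173). The hormone gene Fgf21 (log2 fold change 2.84 ± 0.46, adjusted p 0.00859) and Plin5 (0.89 ± 0.15, 0.011), which coats lipid droplets near mitochondria, were higher as well, as was Angptl4 (0.98 ± 0.24, 0.0423), an inhibitor of lipoprotein lipase. Vnn1, a pantetheinase, was lower, at 160.1, 107, 119.9, 213 and 193 CPM in the controls and 40.5, 88.1 and 40.4 CPM in OPA1_LKO (log2 fold change -1.49 ± 0.33, adjusted p 0.0295). Known targets of this receptor were thus called in both directions, 5 each with DESeq2. Without OPA1_LKO replicate 1 only 1 of the list was called higher, Fgf21, and 0 lower, and the calls of Pdk4, Vnn1 and Angptl4 were also lost without OPA1_LKO replicate 3. Vnn1 was lost without CTRL replicate 4 or 5 too, and Angptl4, called in 2 of 8 such comparisons, without CTRL replicate 2, 3 or 5 or OPA1_LKO replicate 2. The highest adjusted p with a library left out was 0.0899 for Pdk4, 0.151 for Vnn1 and 0.159 for Angptl4.

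Of 16 transcriptional regulators of the pathway, 2 were called higher and 0 lower by edgeR, and the median was -0.22. At an unadjusted p under 0.05, 3 had a value above 0 and 2 a value below 0. The 2 below were Ppara, which encodes PPAR alpha (log2 fold change -0.67 ± 0.20, adjusted p 0.0825), and Pparg (-0.71 ± 0.21, adjusted p 0.0794). Neither passed the threshold in edgeR, and both overlapped between the groups. DESeq2 called 3 higher and 2 lower. Of those called, Lpin1, which makes diacylglycerol and acts as a coactivator of PPAR alpha, was at 15.4, 11.5, 24.4, 20.8 and 29.2 CPM in the controls and 72.2, 94.9 and 115 CPM in OPA1_LKO (log2 fold change 2.21 ± 0.28, adjusted p 0.00262), and it was called in all 8 comparisons that leave out a library. Of 7 genes that set malonyl-CoA, 0 were called by edgeR or DESeq2 and 1 had an unadjusted p under 0.05, with a median of -0.09.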

How the data were processed

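RNA was measured in 8 whole liver libraries, 5 CTRL and 3 OPA1_LKO, made stranded and mRNA-selected per the labels' protocols. Build mm10 and the tools STAR, RSEM, MultiQC and StringTie are named, with no version, in the submitters' processing notes. The annotation release is not given in the sources used here. Per gene, the deposited expected counts are RSEM estimates and were not normalised by the authors. The authors also deposited TPM, corrected for length, per gene and per transcript. RSEM divides reads that match several genes, so near-identical genes such as Acot1 and Acot2 are uncertain in that division.

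Expected counts were rounded to whole numbers, and genes with low counts were removed with filterByExpr (count minimum 10, total 15), which left 14036 of 35976 genes. After TMM scaling, edgeR 4.0.16 (R 4.3.3) tested OPA1_LKO against CTRL with its two-sided quasi-likelihood test and no term other than group. P-values were adjusted by Benjamini-Hochberg over the 14036 genes, and 0.05 was the threshold. SE and 95% confidence intervals were derived from the test statistic. Levels are CPM by TMM-scaled library size. Alternatives were other size factors, no filter, DESeq2 1.42.0, limma 3.58.1 on voom weights or on log2(TPM + 1) and log2(TPM + 0.1), a replicate block, and each library left out. Ratios and transcript shares were tested by exact permutation with SciPy 1.17.1 in Python 3.11.15. The steps were tested on simulated data.

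The 31 members and the lists beside them were chosen with earlier results of these data known. Every member is given, those past the threshold and the main enzyme of each step with every library. Of the other lists those called are given, at most 4 a list by smallest p, and Ppara and Pparg are named besides. A called gene of the other lists that is not named is not reported here. Of the 165 listed genes, 1 was matched through an older symbol. No pair of libraries agreed within counting noise. Promoter windows and gene positions are from RefSeq, GRCm38.p6. No batch is named in the labels, so none could be examined.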

Additional observations from a re-analysis of the deposited data

Results flagged for a closer look

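The 5 CTRL libraries were searched, in each of 43 genes, for a library far from the other 4 by its gap over the range of the group. This happened in 4 genes by Dixon's 95% critical value, which chance alone passes in about 5% of groups. Acadl was at 355 CPM in CTRL replicate 4, with the other controls from 279 to 287 CPM and the knockout libraries from 231 to 263 CPM. Without CTRL replicate 4 the log2 fold change of Acadl was -0.16 in place of -0.25. Acad12 was at 8.76 CPM in CTRL replicate 5, and the other controls were from 3.35 to 4.41 CPM. Without that library its log2 fold change was -0.32 in place of -0.65. Plin5 was at 31.2 CPM in CTRL replicate 3, and the other controls were from 43.7 to 48.1 CPM. Apoe was at 134 CPM in CTRL replicate 1, and the other controls were from 25200 to 33180 CPM.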

How the results depend on the processing

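Acsl4 and Acot2 were called higher with RLE size factors, with no filter, with DESeq2, with limma-voom and on both TPM scales, and their direction was the same in all 16 alternatives. Leaving out each library in turn gave 0 to 2 members called higher, 0 to 1 called lower and 198 to 1701 genes called in all. The lowest total came without OPA1_LKO replicate 1 and the highest without CTRL replicate 1. No member was called lower with no low-count filter, with limma on log2(TPM + 1) or log2(TPM + 0.1), or with the replicate block, so 0 in each, and the cause was not tested. The count over all genes was 1692 with DESeq2 and 560 on log2(TPM + 0.1). Without CTRL replicates 1 and 3, an alternative chosen after the data were seen, it was 2919, with 8 members called lower.

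On log2(TPM + 1) the median of all genes moved by 0.13 and the share of calls that were higher was 82.5%, against 55.4% on counts. Relative to the median of all genes, the member median was -0.16 on that scale and -0.21 on counts, and 17 rather than 26 members were below 0. No ratio and no transcript share was called on the alternatives run for them (expected counts for the ratios, a minimum of 0.5 TPM for the shares, and each library left out). The libraries share replicate numbers between groups, and same-numbered libraries deviated together unevenly (correlations 0.138, 0.0929 and 0.254). OPA1_LKO replicates 1 and 3 were closest to the control of their own number, while OPA1_LKO replicate 2 was closest to CTRL replicate 5 (0.215). The labels do not say that the numbers mark pairs, so they were not taken as pairs, and these values do not settle the question. With the replicate block, 367 genes were called, with 2 members higher (Acsl4 and Acot2) and 0 lower (Hadh -0.58, adjusted p 0.0929), a member median of -0.11 and 18 members below 0. CTRL replicates 4 and 5 have no knockout library of their number, so in that fit the group term rests on replicates 1 to 3 only. It therefore compares fewer controls than the main fit. Acad12, the member with the lowest mean CPM, had 53 to 153 counts per library.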
